A study of Mus musculus with 3 samples.

Results

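The Ikaros, Bcl11, Zeb, Runx and Foxp factors described here are 9 genes for regulators of lymphoid and dendritic cell (DC) lineages: Ikzf1, Ikzf2, Ikzf3, Bcl11a, Zeb1, Zeb2, Runx1, Runx3 and Foxp1. They were chosen by name, and every probe set that the platform's annotation assigns to exactly 1 of them was taken, which gave 40 of 45101 probe sets and 9 of 18194 genes. Gene expression was measured in plasmacytoid DC (pDC), CD8+ conventional DC (CD8+ cDC) and CD11b+ conventional DC (CD11b+ cDC) of naïve female C57bl/6 mice aged 6 to 8 weeks. In all 3 groups magnetic beads removed splenic B and T cells before sorting by flow cytometry, and no mouse was treated or carried an engineered allele as far as the labels say. Each subset was pooled over 5 to 8 mice and hybridised to 1 Affymetrix array, so no spread between samples exists and no difference between subsets has a p-value or standard error. In such bulk samples, fewer cells that express a gene and less of its RNA per cell cannot be told apart.

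Ikaros family proteins (Ikzf genes) are zinc finger factors that recruit chromatin remodelling and histone deacetylase complexes in lymphoid cells, and in mice Ikaros itself is needed for pDC. Bcl11a is a zinc finger factor needed for B cells and pDC in mice. Zeb1 and Zeb2 bind E-box motifs and repress through CtBP corepressors, and in mice Zeb2 is needed for pDC and represses Id2. Runx factors bind DNA as partners of Cbfb, and Foxp1 is a forkhead factor of B and T cell development.

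The value of a probe set is its intensity as deposited, called its signal here. A background level of 112.2 was set from 85 probe sets of odorant, pheromone and taste receptor genes, which spleen cells should not express (95th percentile on the array where it was highest). Values below that level were raised to it before log2 was taken. A gene or probe set was called higher or lower between 2 arrays when the signals differed by 2-fold or more and the brighter exceeded background, and a fold against an array at background is a bound, written as at least that size. Where a gene had several probe sets, it was read at that of highest mean on the log2 scale, called its brightest probe set, and signals of different probe sets or genes were not ranked against each other. Sums over a marker list take in all its matched genes, also those below background, and serve only to set the arrays side by side. Genes above background numbered 10311 on the pDC array, 10374 on the CD8+ cDC array and 10373 on the CD11b+ cDC array. The genes of the proteins that name the sorts followed them: Cd8a had a signal of 32230.5 in pDC, 203567.2 in CD8+ cDC and 701.9 in CD11b+ cDC, and Itgam (CD11b) had 63.6, 64.3 and 2786.5 in that order. Siglech, a lectin of pDC, gave 106309.8 in pDC and lay below background in both cDC subsets, while Zbtb46, a factor of the conventional lineage, gave 215.2 in pDC, 31850.3 in CD8+ cDC and 19656.9 in CD11b+ cDC. All 12 matched pDC markers were higher in pDC than in both cDC subsets, and 8 of 9 markers of conventional DC were lower in each of these comparisons. Of 9 CD8+ cDC markers 8 were higher in CD8+ than in CD11b+ cDC, and 7 of 8 CD11b+ cDC markers were lower, while Mgl2 was below background in both. Against CD11b+ cDC, pDC were lower at 6 of the 8, and higher at Cd209a (21544.4 in pDC, 8649.8 in CD11b+ cDC) and Mgl2 (778.3 in pDC, 93.7 in CD11b+ cDC). The ratio of 3' to 5' signal of Actb, a measure of RNA and amplification quality, was 5.71 in pDC, 4.08 in CD8+ cDC and 2.91 in CD11b+ cDC. That of Gapdh was 16.2, 17.6 and 9.68 on these arrays. Their part in the differences was not tested.

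Zeb2, Foxp1, Bcl11a, Ikzf3 and Ikzf2 were highest in pDC, whereas Zeb1 and Runx1 were lowest there and Runx3 differed less than 2-fold anywhere. Zeb2 had the widest range, with a signal of 40051.9 in pDC, 744.2 in CD8+ cDC and 7016.3 in CD11b+ cDC. Against CD8+ cDC, pDC were higher at 6 of the 9 genes and lower at 2, beside 16% and 14.8% of 10800 genes tested, 30.8% in all. Against CD11b+ cDC, pDC were higher at 5 and lower at 2, beside 15% and 14.3% of 10767 genes (29.3% in all). CD8+ cDC were higher than CD11b+ cDC at 0 and lower at 4, beside 9.87% and 10.3% of 10683 genes (20.2% in all). The median log2 difference over the 9 genes was 2.12, 1.14 and -0.97 in these pairs, and that over all genes tested was 0.00, 0.01 and 0.01. The genes were picked with earlier results of these arrays known, so their shares describe them and no more. Of the 40 probe sets, 28 were above background on at least 1 array, and the other 12 read between 42.1 and 100.6 on every array. With the arrays scaled instead to the control transcripts spiked into each hybridization, called spike-in scaling here, pDC were higher than CD8+ cDC at 7 of the 9 genes and lower at 0, and CD8+ cDC were higher than CD11b+ cDC at 0 and lower at 7. Between pDC and CD11b+ cDC that scaling gave 3 higher and 2 lower. It also shifted all genes: calls in the direction of the subset named first made up 77.6% (pDC and CD8+ cDC), 34.7% (pDC and CD11b+ cDC) and 7.83% (CD8+ and CD11b+ cDC) of all calls, in place of 51.8%, 51.2% and 49.0%. Sizes below are on the deposited scale unless a scaling is named.

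**Figure D1:**
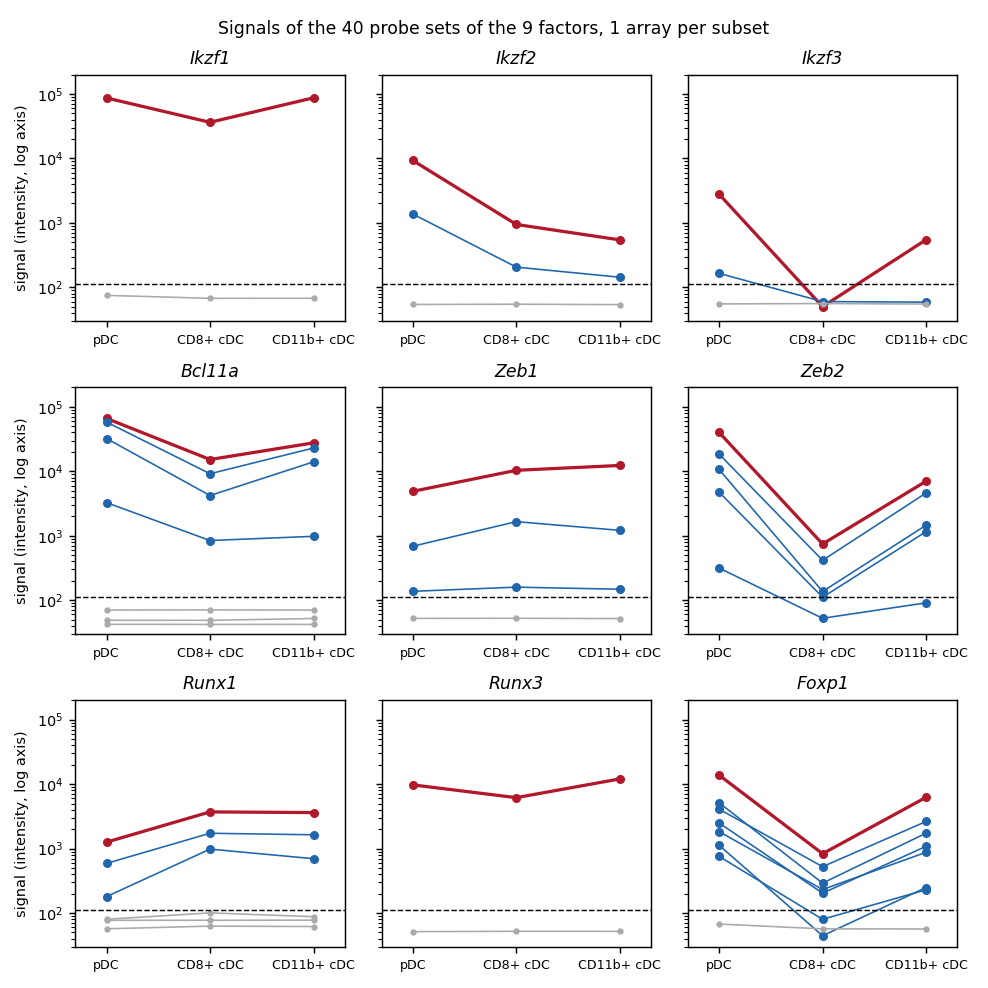
Signal of each probe set (intensity, log axis) on the pDC, CD8+ cDC and CD11b+ cDC arrays, with 1 panel per gene and 1 point per array. Red marks the brightest probe set of a gene, blue the other probe sets above background on at least 1 array, grey those below it on all 3, and the dashed line the background level of 112.2. The lines of Zeb2 and Foxp1 dip at CD8+ cDC, and those of Runx1 start low at pDC.

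RefSeq promoter sequences (GRCm38.p6, 250 bases before to 50 after a transcript start) were available for 6 of the 9 genes, with 14 starts in all. They were Zeb2, Foxp1, Bcl11a, Ikzf1, Runx1 and Runx3. They were searched on both strands for the E-box bound by Zeb proteins (CACCTG, or CAGGTG on the other strand), the E-box CAGCTG, the Runx core TGTGGT (other strand ACCACA), the Ikaros core TGGGAA (other strand TTCCCA) and the ETS core GGAA (other strand TTCC), which lies within the Ikaros core. Of 32851 promoters in the table, 20.2% held the Zeb E-box, 16.3% CAGCTG, 16.8% the Runx core, 25.6% the Ikaros core and 96% the ETS core. The 6 promoters that held any of the first 4 motifs are printed 5′ to 3′ in the direction of the gene, with those motifs in capitals, since they show where motifs of these factor families lie at the genes' own starts.
Zeb2, chr2:45113204-45113503, - strand: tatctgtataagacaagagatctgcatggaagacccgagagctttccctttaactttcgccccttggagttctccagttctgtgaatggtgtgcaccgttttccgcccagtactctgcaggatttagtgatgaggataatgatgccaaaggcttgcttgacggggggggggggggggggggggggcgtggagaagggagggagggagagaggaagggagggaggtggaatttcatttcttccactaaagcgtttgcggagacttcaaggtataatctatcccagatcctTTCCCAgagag
Foxp1, chr6:99266466-99266765, - strand: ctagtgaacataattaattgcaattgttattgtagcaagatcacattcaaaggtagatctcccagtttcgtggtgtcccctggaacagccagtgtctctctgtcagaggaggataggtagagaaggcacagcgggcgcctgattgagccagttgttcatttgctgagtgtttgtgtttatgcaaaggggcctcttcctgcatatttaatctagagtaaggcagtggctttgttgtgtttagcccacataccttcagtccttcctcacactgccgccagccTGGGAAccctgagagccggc
Foxp1, chr6:99028249-99028548, - strand: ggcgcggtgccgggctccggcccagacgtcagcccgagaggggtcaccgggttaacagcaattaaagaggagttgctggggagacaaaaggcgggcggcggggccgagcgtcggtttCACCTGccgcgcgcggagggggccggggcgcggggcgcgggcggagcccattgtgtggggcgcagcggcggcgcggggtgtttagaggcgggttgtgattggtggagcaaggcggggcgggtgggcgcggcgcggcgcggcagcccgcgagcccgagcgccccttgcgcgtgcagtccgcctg
Bcl11a, chr11:24080445-24080744, + strand: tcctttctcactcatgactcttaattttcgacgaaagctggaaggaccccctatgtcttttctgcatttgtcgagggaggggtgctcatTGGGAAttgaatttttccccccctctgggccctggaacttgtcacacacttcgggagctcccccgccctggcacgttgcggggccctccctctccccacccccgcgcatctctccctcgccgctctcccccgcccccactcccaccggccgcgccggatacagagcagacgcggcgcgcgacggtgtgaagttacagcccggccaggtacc
Runx1, chr16:92826025-92826324, - strand: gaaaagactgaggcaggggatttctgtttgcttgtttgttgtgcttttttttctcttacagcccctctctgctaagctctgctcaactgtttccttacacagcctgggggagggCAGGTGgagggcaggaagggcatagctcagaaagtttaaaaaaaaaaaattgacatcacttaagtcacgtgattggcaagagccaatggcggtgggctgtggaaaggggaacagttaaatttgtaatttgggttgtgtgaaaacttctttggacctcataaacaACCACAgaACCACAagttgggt
Runx3, chr4:135120395-135120694, + strand: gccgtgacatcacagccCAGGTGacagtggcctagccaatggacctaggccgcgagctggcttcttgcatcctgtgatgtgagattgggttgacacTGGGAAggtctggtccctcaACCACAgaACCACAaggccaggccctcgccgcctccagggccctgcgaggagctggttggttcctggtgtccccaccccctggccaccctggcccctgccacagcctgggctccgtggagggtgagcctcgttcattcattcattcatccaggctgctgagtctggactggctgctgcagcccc
The printed Runx1 and Runx3 promoters each held 2 Runx cores, both on the other strand. In Runx1 they began 29 and 37 bases after the start, counting the start base as the first, and in Runx3 they began 134 and 126 bases before it. Both also held a Zeb E-box, 136 bases before the start in Runx1 and 233 bases before it in Runx3. Runx3 added an Ikaros core 154 bases before its start. The printed Bcl11a promoter held an Ikaros core 161 bases before the start, and the printed Zeb2 promoter held one 40 bases after it. The printed Foxp1 promoters held an Ikaros core 31 bases after the start on chromosome 6 at 99266466 to 99266765, and a Zeb E-box 133 bases before it at 99028249 to 99028548. None of the 14 promoters held CAGCTG, and those not printed, among them other starts of Runx1, Runx3, Zeb2 and Foxp1, held none of the first 4 motifs. Binding at these matches was not tested.

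Zeb2 was read by 5 probe sets, all highest in pDC, and 4 of them lowest in CD8+ cDC. The brightest (1422748_at) gave 40051.9 in pDC, 744.2 in CD8+ cDC and 7016.3 in CD11b+ cDC. The next (1434298_at) gave 18474.5, 415.6 and 4597.1 on those arrays, and 1456389_at gave 10691.0, 136.4 and 1456.6. All 3 thus fell in the same order of arrays. Probe set 1454200_at read 4750.3 in pDC, 111.2 in CD8+ cDC, just under the background level, and 1156.7 in CD11b+ cDC. The dimmest, 1458941_at, was above background only in pDC, at 315.4, and gives the cDC subsets (52.4 in CD8+ cDC, 91.0 in CD11b+ cDC) no order. At the brightest probe set Zeb2 was 53.8-fold higher in pDC than in CD8+ cDC, a log2 difference of 5.75 that ranked 99 from the top among 10800 genes. Across the 4 brighter probe sets that fold ran from at least 42.3 to 78.4. Against CD11b+ cDC pDC were 5.71-fold higher, and CD8+ cDC were 9.43-fold lower than CD11b+ cDC (rank 188 from the bottom of 10683 genes), a log2 difference of -3.24 that spike-in scaling moved to -4.23. Each step of the order was thus over 2-fold, and all 5 probe sets were called higher in pDC against both cDC subsets.

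Zeb1, the paralogue of Zeb2, ran the other way. Its brightest probe set (1418926_at) gave 4880.9 in pDC, 10350.5 in CD8+ cDC and 12304.4 in CD11b+ cDC, so pDC were 2.12-fold lower than CD8+ cDC and 2.52-fold lower than CD11b+ cDC. The cDC subsets differed 1.19-fold, under the 2-fold rule, and CD8+ cDC were called lower with spike-in scaling (log2 -1.24 in place of -0.25). Probe set 1446127_at gave 687.1, 1654.5 and 1211.8 on the pDC, CD8+ cDC and CD11b+ cDC arrays, which is lower in pDC against CD8+ cDC (2.41-fold) but 1.76-fold, not a call, against CD11b+ cDC. A dim probe set (1443005_at) stayed between 137.3 and 159.4, and 1 more lay below background. The lower call of Zeb1 in pDC against CD8+ cDC (log2 -1.08) did not hold with spike-in scaling (-0.45). Nor did it hold after scaling to 11 housekeeping genes (-0.77), some of which themselves differed between the arrays, or averaged over its probe sets (-0.86). Against CD11b+ cDC it held with spike-ins (-1.69) and not over averaged probe sets (-0.75). Zeb1 and Zeb2 thus differed in direction on these arrays, with the size of the Zeb1 difference near the threshold.

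Foxp1 was read by 7 probe sets above background, each highest in pDC and lowest in CD8+ cDC. The brightest (1435221_at) gave 13785.7 in pDC, 832.8 in CD8+ cDC and 6243.5 in CD11b+ cDC. Probe set 1435222_at gave 5141.6, 291.4 and 1732.9, and 1421140_a_at gave 4096.3, 524.4 and 2633.0 on these arrays. The CD8+ cDC value lay far under the other 2 each time. The remaining 4 (1438802_at, 1455242_at, 1421142_s_at and 1421141_a_at) gave 756.8 to 2500.1 in pDC, 44.5 to 231.9 in CD8+ cDC and 229.9 to 1083.8 in CD11b+ cDC. Foxp1 was 16.6-fold higher in pDC than in CD8+ cDC (from at least 6.75-fold to 17.6-fold over its probe sets) and 7.5-fold lower in CD8+ cDC than in CD11b+ cDC (from at least 2.05-fold to 7.5-fold). Between pDC and CD11b+ cDC the fold was 2.21, with 6 of 7 probe sets called higher and 1421140_a_at at 1.56-fold. The Foxp1 call in that pair ended with spike-in scaling, where the log2 difference was 0.79 in place of 1.14. Between the cDC subsets the difference of -2.91 became -3.90 with spike-in scaling and -2.05 averaged over probe sets. Among genes with 2 or more measured probe sets, 8.33% had all of them higher in pDC than in CD8+ cDC, and Foxp1, Zeb2, Bcl11a and Ikzf2 were in that class, out of 7 factors with that many. Against CD11b+ cDC, Zeb2, Bcl11a and Ikzf2 were in it (8.33% of genes). Runx1 had all its measured probe sets lower in pDC than in CD8+ cDC (8.5% of genes) and than in CD11b+ cDC (7.77%). Between the cDC subsets Zeb2 and Foxp1 had all lower in CD8+ cDC (4.61% of genes), and 0 factors had all higher (5.01%).

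Bcl11a gave 66021.8 in pDC, 15213.4 in CD8+ cDC and 27598.9 in CD11b+ cDC at its brightest probe set (1419406_a_at). Probe set 1457072_at gave 57984.5, 9150.2 and 22957.1 on those arrays, and 1456632_at gave 32210.8, 4206.1 and 13994.6. In each, pDC stood highest and CD8+ cDC lowest, as they did at 1426552_a_at with 3264.6, 842.3 and 979.5. Bcl11a was 4.34-fold higher in pDC than in CD8+ cDC (3.88-fold to 7.66-fold over 4 probe sets) and 2.39-fold higher than in CD11b+ cDC (2.3-fold to 3.33-fold). The cDC subsets differed 1.81-fold at the brightest probe set, under the rule, while 1457072_at and 1456632_at called CD8+ cDC lower (2.51-fold and 3.33-fold). The log2 difference of -0.86 in that pair passed the rule with spike-in scaling (-1.85), with housekeeping scaling (-1.02), averaged over probe sets (-1.03) and without probe sets whose names end in _s_at, _x_at or _a_at (-1.33). The order of the cDC subsets was the same in all 4, and its size depended on the probe set. With spike-in scaling the log2 difference between pDC and CD11b+ cDC was 0.90, below the rule, in place of 1.26. The other 3 probe sets of Bcl11a were below background.

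Of the Ikaros family, Ikzf2 (Helios), known from regulatory T cells and blood progenitors, was highest in pDC. Its brightest probe set (1437542_at) gave 9286.4 in pDC, 944.8 in CD8+ cDC and 544.6 in CD11b+ cDC, and 1456956_at gave 1371.9, 205.7 and 143.5. Both were above background on all 3 arrays and highest in pDC. Ikzf2 was 9.83-fold higher in pDC than in CD8+ cDC and 17.1-fold higher than in CD11b+ cDC (rank 206 from the top of 10767 genes). The cDC subsets differed 1.73-fold, under the rule, and that difference of 0.79 (log2) turned to -0.20 with spike-in scaling.

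Ikzf3 (Aiolos), known from mature B cells, had 2782.8 in pDC, 50.1 in CD8+ cDC and 547.6 in CD11b+ cDC at its brightest probe set (1436649_at). It was at least 24.8-fold higher in pDC than in CD8+ cDC, where it lay below background, and 5.08-fold higher than in CD11b+ cDC. The log2 difference of 4.63 from CD8+ cDC became 3.63 with 2 times the background level, 2.74 with the level at the 99th percentile of the receptor probe sets, and 2.59 averaged over its probe sets, and it was called each time. That of 2.35 from CD11b+ cDC became 1.45 averaged over its probe sets. CD8+ cDC were at least 4.88-fold lower than CD11b+ cDC, a log2 difference of -2.29. It became -1.29 with 2 times the background level and -1.14 averaged over its probe sets, and its call ended with the level at the 99th percentile (-0.40). The second probe set above background (1441088_at) read 164.7 in pDC, 60.1 in CD8+ cDC and 58.9 in CD11b+ cDC, too dim to reach 2-fold. The last of its probe sets was below background, so the pattern of Ikzf3 rests on 1 probe set.

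Ikzf1 (Ikaros) gave 86618.5 in pDC, 36316.4 in CD8+ cDC and 87055.9 in CD11b+ cDC at 1436312_at, its only measured probe set. The pDC and CD11b+ cDC values were alike (1.01-fold), and CD8+ cDC stood below both. Ikzf1 was 2.39-fold higher in pDC than in CD8+ cDC and 2.4-fold lower in CD8+ cDC than in CD11b+ cDC (log2 -1.26, and -2.26 with spike-in scaling). Differences of that size or larger were found for 24.8% of genes in the first of these pairs and 14.9% in the second. The signals of Ikzf1 in pDC and CD11b+ cDC, and of Bcl11a in pDC, exceeded 65535, the highest value of a 16-bit reading, so deposited values are not raw brightness and compression at the bright end was not tested. All 3 Ikaros genes were higher in pDC than in CD8+ cDC. In CD11b+ cDC, Ikzf1 was within 2-fold of pDC, Ikzf3 lay between the other subsets, and Ikzf2 was within 2-fold of CD8+ cDC.

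Runx1, a factor of blood stem cell formation, was lowest in pDC. Its brightest probe set (1440878_at) gave 1259.8 in pDC, 3708.6 in CD8+ cDC and 3620.3 in CD11b+ cDC. Probe set 1422864_at gave 589.9, 1729.1 and 1637.9 on these arrays, and 1427650_a_at gave 180.0, 981.8 and 696.8. The cDC subsets lay within 2-fold of each other and above pDC in all 3. Runx1 was 2.94-fold lower in pDC than in CD8+ cDC (2.93-fold to 5.45-fold over its probe sets) and 2.87-fold lower than in CD11b+ cDC (2.78-fold to 3.87-fold). The cDC subsets differed 1.02-fold (log2 0.03, and -0.96 with spike-in scaling). With spike-in scaling the difference from CD8+ cDC was -0.92 (log2), below the rule, in place of -1.56, and that from CD11b+ cDC was -1.88 in place of -1.52. The other 3 probe sets of Runx1 were below background.

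Runx3, known from CD8 T cells and from the response of DC to TGF-beta, gave 9729.9 in pDC, 6169.4 in CD8+ cDC and 12044.6 in CD11b+ cDC at 1440275_at, the only measured probe set of 2. No pair reached 2-fold. CD8+ cDC were 1.58-fold below pDC and 1.95-fold below CD11b+ cDC, and pDC were 1.24-fold below CD11b+ cDC. With spike-in scaling CD8+ cDC were called lower than both others, with log2 differences of 1.30 from pDC (pDC minus CD8+ cDC) and -1.96 from CD11b+ cDC (CD8+ cDC minus CD11b+ cDC), and with housekeeping scaling lower than CD11b+ cDC (-1.13). Runx2, the third mammalian Runx gene and known from pDC in mice, was not analysed here.

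**Figure D2:**
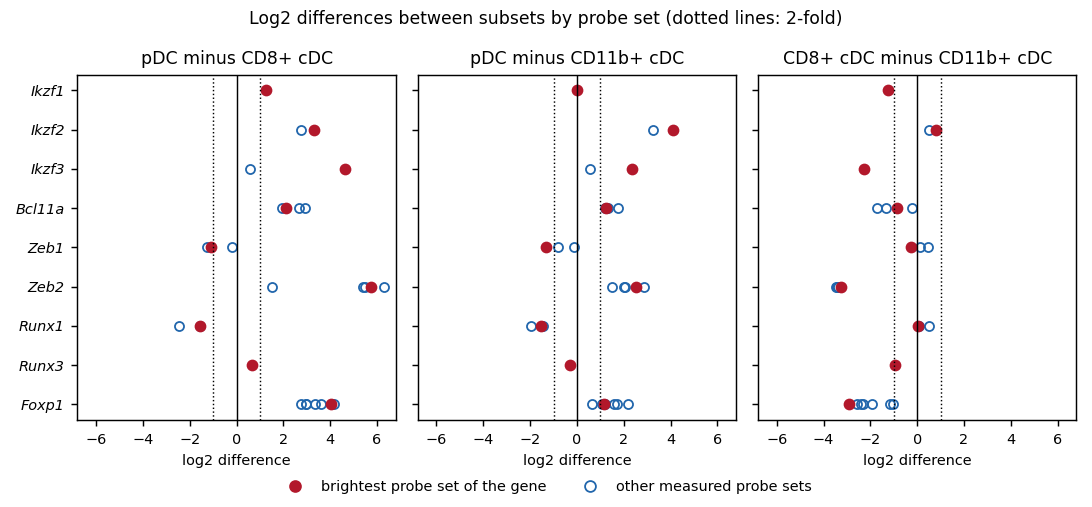
Log2 difference of each measured probe set in the pairs pDC minus CD8+ cDC, pDC minus CD11b+ cDC and CD8+ cDC minus CD11b+ cDC. Red points are the brightest probe set of a gene, open blue points the others, and dotted lines mark 2-fold. Points of Zeb2 reach 6.29 in the first panel and those of Runx1 lie left of -1 in the first 2 panels.

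The order pDC, CD11b+ cDC, CD8+ cDC from high to low, with ends at least 2-fold apart, was shown by Zeb2, Foxp1, Bcl11a and Ikzf3, that is 4 of 9, beside 8.54% of the 10988 genes above background on any array. With each step at 2-fold or more it was shown by Zeb2, Foxp1 and Ikzf3, beside 1.34% of genes. The Foxp1 step from pDC to CD11b+ cDC fell under 2-fold with spike-in scaling (log2 0.79). The Ikzf3 step between the cDC subsets did so with the background level at the 99th percentile (-0.4). Ikzf2 placed CD8+ cDC in the middle, an order of 7.1% of genes. Runx1 ran CD8+ cDC, CD11b+ cDC, pDC (7.43%), Zeb1 ran CD11b+ cDC, CD8+ cDC, pDC (7.76%), and Ikzf1 ran CD11b+ cDC, pDC, CD8+ cDC (3.59%). The order CD8+ cDC, pDC, CD11b+ cDC was shown by 0 factors (3.67%). With each step at 2-fold or more, 0 factors showed any of the 5 other orders. Those were found for 0.91% of genes (pDC, CD8+ cDC, CD11b+ cDC), 0.419% (CD8+ cDC, pDC, CD11b+ cDC), 1.64% (CD8+ cDC, CD11b+ cDC, pDC), 0.446% (CD11b+ cDC, pDC, CD8+ cDC) and 1.42% (CD11b+ cDC, CD8+ cDC, pDC). The cDC neighbours in the orders of Ikzf2, Runx1 and Zeb1, and the pDC and CD11b+ cDC neighbours in that of Ikzf1, differed less than 2-fold. Ikzf2, Ikzf3 and Zeb2 were 4-fold or more above both other subsets in pDC, beside 4.28% of genes, and 0 factors were so in CD8+ cDC (2.43% of genes) or CD11b+ cDC (2.02%). In pDC this count was 2 with spike-in scaling and 2 averaged over probe sets. Ikzf3 was then under 4-fold over CD11b+ cDC (log2 1.99 and 1.45). As a gauge of error within the arrays, log2 differences of 2 probe sets of a gene differed with an SD of 0.91 (pDC minus CD8+ cDC), 0.87 (pDC minus CD11b+ cDC) and 0.75 (CD8+ cDC minus CD11b+ cDC), over 4948 genes. The called differences of Zeb1 (-1.08 and -1.33) and Ikzf1 (1.25 and -1.26) were the nearest to that size, with those of Foxp1 (1.14) and Bcl11a (1.26) between pDC and CD11b+ cDC.

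**Figure D3:**
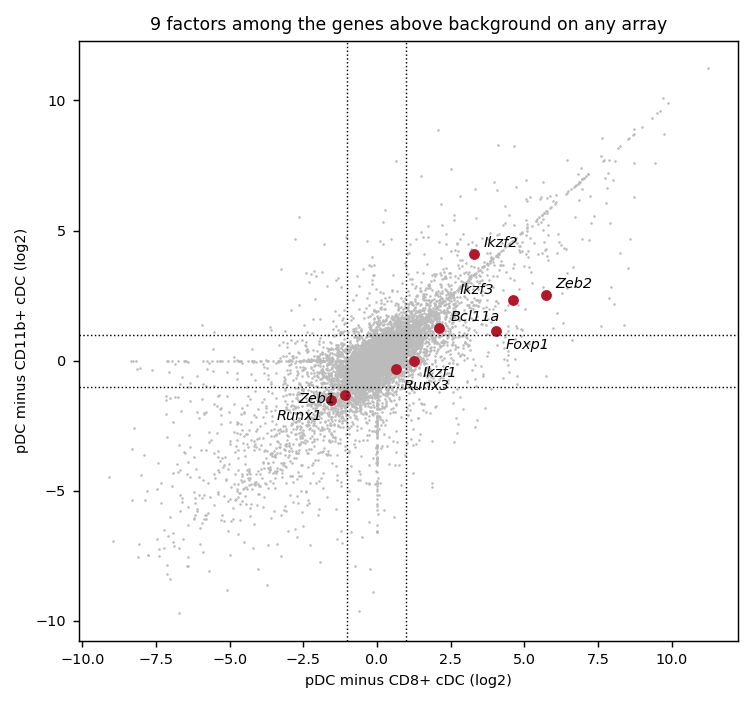
Log2 difference of pDC minus CD8+ cDC (horizontal) against that of pDC minus CD11b+ cDC (vertical) at the brightest probe set of each of 10988 genes (grey), with the 9 factors in red and dotted lines at 2-fold. Both axes hold the pDC array, so the diagonal spread is shared by construction. Zeb2, Ikzf3 and Foxp1 lie below the diagonal at 5.75, 4.63 and 4.05 on the horizontal axis.

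Around these factors, 4 gene lists were read by the same rule. Their counts are to be set beside the shares of all genes. These were 16% higher and 14.8% lower for pDC minus CD8+ cDC, and 15% and 14.3% for pDC minus CD11b+ cDC. For CD8+ cDC minus CD11b+ cDC they were 9.87% and 10.3%. The first list held other genes of the same families and also Cbfb, Runx1t1, Cbfa2t2, Cbfa2t3 and Zfpm1, which are not of these families. Of its 11 matched genes, 9 were above background on some array, and 0 were called between pDC and CD8+ cDC. Ikzf4, Runx1t1, Foxp2 and Zfpm1 read no higher than 141.4 on any array, too near the background level of 112.2 to reach 2-fold. The medians of this list rest partly on such values. Cbfb, the DNA-binding partner of Runx proteins, had 38795.7 in pDC, 57461.9 in CD8+ cDC and 108113.4 in CD11b+ cDC, and was 2.79-fold lower in pDC than in CD11b+ cDC. The corepressor gene Cbfa2t3 was 3.35-fold lower in that pair (4888.2 in pDC, 16367.4 in CD11b+ cDC), and these were the only calls of the list against CD11b+ cDC. Ikzf5, an Ikaros family gene, gave 4027.7, 2551.4 and 3903.3 in pDC, CD8+ cDC and CD11b+ cDC and was not called. Bcl11b and Foxp3, known from T cells, lay below background on all arrays. Median log2 differences of the list were -0.03, 0.03 and -0.29 in the pairs pDC minus CD8+ cDC, pDC minus CD11b+ cDC and CD8+ cDC minus CD11b+ cDC. With spike-in scaling 3 of them were called higher in pDC than in CD8+ cDC and 5 lower in CD8+ than in CD11b+ cDC, where the deposited scale gave 0.

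Of 23 measured corepressor partners of these factors, 16 were not called in any pair. Among these, Chd4 of the NuRD complex gave 6667.7 in pDC, 6677.9 in CD8+ cDC and 7275.0 in CD11b+ cDC. On the deposited scale the list had 2 genes higher and 2 lower in pDC than in CD8+ cDC (median 0.07), 1 higher and 3 lower than in CD11b+ cDC (median -0.20), and 2 higher and 2 lower in CD8+ than in CD11b+ cDC (median 0.02; 1 and 11 with spike-in scaling). Ctbp2, a corepressor that Zeb proteins recruit, stood apart in size. It gave 309.6 in pDC, 15255.1 in CD8+ cDC and 2543.2 in CD11b+ cDC, 49.3-fold and 8.21-fold lower in pDC, and 6-fold higher in CD8+ than in CD11b+ cDC. This is the reverse of the order of Zeb2, on the same 3 arrays. Its relative Ctbp1 gave 47236.0, 23423.0 and 34887.6, which is 2.02-fold higher in pDC than in CD8+ cDC. Satb1, a chromatin organiser of T cells, gave 17333.1 in pDC, 5599.4 in CD8+ cDC and 25265.4 in CD11b+ cDC, 3.1-fold higher in pDC than in CD8+ cDC and 4.51-fold lower in CD8+ than in CD11b+ cDC. The remodeller gene Chd3 (2429.6 in pDC, 4972.0 in CD8+ cDC, 7798.6 in CD11b+ cDC) was 2.05-fold lower in pDC than in CD8+ cDC and 3.21-fold lower than in CD11b+ cDC. The NuRD subunit gene Mta3 (9103.8 in pDC, 10661.1 in CD8+ cDC, 28169.3 in CD11b+ cDC) was 3.09-fold lower in pDC and 2.64-fold lower in CD8+ cDC, each against CD11b+ cDC. Tle1, a Groucho corepressor gene, was 2.07-fold higher in pDC (2604.3) than in CD11b+ cDC (1260.6). The histone demethylase gene Kdm1a was 2.06-fold higher in CD8+ cDC (27453.9) than in CD11b+ cDC (13358.0).

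Of 26 other regulators of DC lineages, pDC were higher at 9 and lower at 9 against CD8+ cDC (median -0.40), and higher at 8 and lower at 11 against CD11b+ cDC (median -0.58). CD8+ cDC were higher than CD11b+ cDC at 4 and lower at 7 (median 0.11). Tcf4, Id2, Batf3, Zbtb46 and Flt3 of this list are also subset markers used above, so the counts partly repeat the marker result. Several of the 26 regulators shared the order of Zeb2. Ets1 gave 91626.6 in pDC, 629.3 in CD8+ cDC and 3684.4 in CD11b+ cDC. Spib, an ETS factor of pDC and B cells, gave 142803.0, 1619.3 and 13918.8, and Tcf4, the E protein that specifies pDC, gave 172720.5, 2420.5 and 5895.3 on these arrays. Id2, the inhibitor of E proteins that Zeb2 represses in mice, gave 5378.5 in pDC, 385974.7 in CD8+ cDC and 236305.1 in CD11b+ cDC, an order opposite to that of Zeb2 and Tcf4. Batf3, needed for CD8+ cDC in mice, had 171.8, 37688.0 and 30189.0. Irf4, a factor of CD11b+ cDC, gave 5566.0 in pDC, 855.2 in CD8+ cDC and 11712.9 in CD11b+ cDC, while Irf8 gave 646348.8, 534491.2 and 11554.3. The low CD8+ cDC value of Zeb2, Foxp1, Ikzf3 and Ikzf1 was thus also found at Irf4 and not at Irf8. Bcl6 was 8.54-fold lower in pDC (7114.3) than in CD8+ cDC (60721.8), and Relb was 19.6-fold lower in pDC (4535.2) than in CD11b+ cDC (88805.0). Myb, a factor of progenitors, was 19-fold higher in pDC (67197.7) than in CD11b+ cDC (3529.6). CD8+ cDC were higher than CD11b+ cDC at Mycl (64087.4 against 9219.3, 6.95-fold) and Nfil3 (1751.5 against 461.2, 3.8-fold). They were lower at Klf4 (14332.0 against 92170.4, 6.43-fold) and at Gfi1 (105.2, below background, against 729.9, at least 6.51-fold), besides Irf4 (13.7-fold) and Spib (8.6-fold). Zbtb46, with its signals above, was 148-fold lower in pDC than in CD8+ cDC.

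Of 22 genes that these factors are known to regulate in lymphoid, myeloid or epithelial cells, 19 were above background in pDC. Against CD8+ cDC 9 were higher in pDC and 4 lower of 19 (median 0.81), and against CD11b+ cDC 10 were higher and 3 lower (median 1.36). Over all genes the shares were 16% and 14.8%, and 15% and 14.3%. The list shares Tcf4, Dntt and Ccr9 with the pDC markers used above. It also shares Id2 and Flt3 with the markers of conventional DC, and Cd8a and Itgae with those of CD8+ cDC. These counts thus partly repeat the marker result. Cdh1 (E-cadherin), which Zeb proteins repress in epithelial cells, had 86751.0 in pDC, and 106.2 in CD8+ cDC and 104.8 in CD11b+ cDC, both below background. It was at least 773-fold higher in pDC, where Zeb2 was highest and Zeb1 lowest. Dntt, the terminal transferase of lymphoid progenitors that Ikaros binds, had 56844.9 in pDC and was below background in both cDC subsets, at least 507-fold lower. The interleukin 7 receptor gene Il7r gave 152617.2 in pDC, 2739.4 in CD8+ cDC and 5421.8 in CD11b+ cDC, and Mtss1, a membrane scaffold, gave 26492.2, 534.8 and 225.0. Cd4, which Runx factors silence in CD8 T cells, had 37301.9 in pDC and 14500.8 in CD11b+ cDC and was below background in CD8+ cDC (110.1). Itgae, an integrin gene of CD8+ cDC and Runx3 dependent in T cells, gave 208.2 in pDC, 55143.8 in CD8+ cDC and 254.4 in CD11b+ cDC. Spi1 (PU.1), a target of Runx1, gave 2442.7 in pDC, 19637.7 in CD8+ cDC and 32009.2 in CD11b+ cDC. It was 8.04-fold lower in pDC than in CD8+ cDC and 13.1-fold lower than in CD11b+ cDC. Csf1r (7665.2 in pDC, 11777.6 in CD8+ cDC, 64905.6 in CD11b+ cDC) was 8.47-fold lower in pDC and 5.51-fold lower in CD8+ cDC, each against CD11b+ cDC. Ccr9, a chemokine receptor, gave 126946.2 in pDC, 7355.2 in CD8+ cDC and 411.6 in CD11b+ cDC, and Cd8a was 6.32-fold lower in pDC than in CD8+ cDC. Of this list, 4 genes were higher and 3 lower in CD8+ than in CD11b+ cDC of 16 tested (median 0.38). Regulation of any gene of the 4 lists by these factors was not tested.

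**Figure D4:**
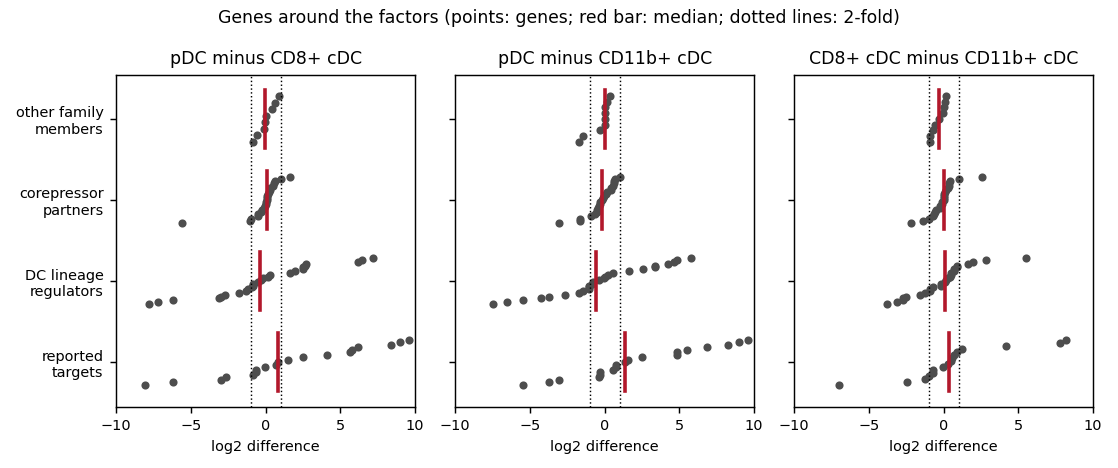
Log2 differences of genes of the 4 lists in the same 3 pairs, with 1 point per gene at its brightest probe set, red bars at list medians and dotted lines at 2-fold. Points labelled other family members, which take in genes outside the families and some near background, stay within 2-fold in the first panel. The leftmost corepressor point there is Ctbp2 at -5.62.

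The genes whose pattern over the 3 arrays was most like that of a factor were found by the Euclidean distance of mean-centred log2 signals, among 9290 genes with a brightest array at 4 times background or more. Runx3 was left out, since its range was under 2-fold. With 3 points per gene the distance says little where a factor's range is small. Within a distance of 0.5 lay 530 genes for Zeb1, 382 for Ikzf1, 287 for Runx1 and 239 for Bcl11a, but 22 for Ikzf2, 13 for Foxp1, 10 for Ikzf3 and 6 for Zeb2. The nearest to Zeb2 were Hvcn1, a proton channel gene (distance 0.11; signals 145628.5 in pDC, 2704.5 in CD8+ cDC and 27929.3 in CD11b+ cDC), Hs3st3b1, a heparan sulfate sulfotransferase (0.12), and Sema4b, a semaphorin (0.31). Nearest to Foxp1 were Fam43a (0.04), Mndal (0.15) and Fam217b (0.23). For Ikzf3 they were Abhd15 (0.14), Cav2 (0.16) and Clec4g (0.24), and for Ikzf2 Rad51b (0.06), Rhbdf2 (0.20) and Fgfr1 (0.26). Of the factors with many neighbours, Bcl11a had Slf2 (0.05), Adi1 (0.05) and Tbc1d2b (0.07), and Ikzf1 had Brf2 (0.04), Shisa5 (0.06) and Pecam1 (0.06). Zeb1 had Ado (0.01), Rps15 (0.02) and Vps18 (0.03), and Runx1 had Cd52 (0.04), Sbf1 (0.05) and Gtse1 (0.06). Among the factors themselves, Zeb1 and Runx1 were closest (0.34), then Ikzf1 and Runx3 (0.42).

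Several of these factors are also known from B and T cells, so markers of other cell types were read beside them. Of 10 matched B cell markers, 4, 4 and 5 were above background in pDC, CD8+ cDC and CD11b+ cDC, with summed signals of 65498.4, 33081.6 and 16175.4. Pax5, Cd79a, Ebf1 and Vpreb3 were below background on all 3 arrays. Fcrla gave 54639.4 in pDC, 13002.8 in CD8+ cDC and 117.6 in CD11b+ cDC, Cd79b gave 10102.6, 380.9 and 4025.5, and Ms4a1 gave 223.3, 19147.3 and 11046.5. Of 11 T cell markers, 4, 3 and 3 were above background, with sums of 6225.1, 1377.5 and 3687.3. Cd3e, Cd3d and Cd3g were below background on all arrays, and Cd28 gave 4830.1 in pDC and was below background in both cDC subsets. Cd5 ran the other way, with 343.5 in pDC, 432.5 in CD8+ cDC and 2832.3 in CD11b+ cDC. Lat gave 444.4, 266.7 and 188.3 on these arrays, and Cd247 gave 137.5, 138.8 and 137.1. Of 7 NK cell markers, 1, 2 and 2 were above background, with sums of 811.8, 810.9 and 1230.4, and Ncr1 was not. Monocyte and macrophage markers, all 8 of them above background on every array, summed to 41081.3 in pDC, 96083.0 in CD8+ cDC and 220414.2 in CD11b+ cDC. Of 7 neutrophil markers 6 were above background, and all 7 summed to 2752.6, 1609.6 and 16932.4. Of 4 erythroid markers 3 were above background, with sums of 2295.5, 2355.6 and 3470.9, and Hba-a1 was not. Of the 8 monocyte and macrophage markers, 5 had their highest signal in CD11b+ cDC, Cd163 had it in pDC (1987.2), and Vcam1 and Spic had it in CD8+ cDC (68202.6 and 1974.7). All 6 measured neutrophil markers were highest in CD11b+ cDC. The part of these markers' cells in the CD11b+ cDC levels of Zeb2, Ikzf1 and Runx3 was not tested.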

How the data were processed

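Total RNA (20 ng per subset) was amplified into biotinylated cRNA and hybridised to 1 array per subset, per the labels' protocols. The deposited values are 1 linear intensity per probe set and array, and the submitters' processing notes name MAS5 with no version. The sources used here give no further scaling step. Sorted by size, the values of the 3 arrays were nearly identical, with medians of 97.8 in pDC, 99.6 in CD8+ cDC and 97.8 in CD11b+ cDC. The like numbers of genes above background, small all-gene medians and even shares of calls on the deposited scale are thus largely set by that scale. Of 45101 probe sets (64 controls), 34958 name 1 gene, 932 several and 9211 none. The 2-fold rule, the background level of 112.2 (95th percentile of 85 receptor probe sets, 5 of them above it on some array) and the brightest-probe-set rule were applied with Python 3.11.15, numpy 2.4.6 and pandas 2.3.3. The calling code was run on simulated data with little noise and planted changes of 4-fold or more in bright genes. That run checks the code and cannot gauge calls near 2-fold or near background. No test between subsets was run, since 1 array each gives no spread. All factors are named with their measured probe sets, and probe sets below background are counted per gene. Of each list, counts are given and genes with the largest differences are named, up to 4 per direction and pair, with others added where the text needed them after their values were seen. The factors, lists and rules were chosen with earlier results of these data known. The 11 alternatives covered scaling, background, probe set choice and the fold threshold. The number of arrays limits the precision.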

Additional observations from a re-analysis of the deposited data

How the results depend on the processing

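Of 243 recomputed differences (27 factor and pair values under 9 alternatives), 227 moved by less than the SD between probe sets of a gene, 16 moved by more, and 0 of the called ones turned sign. Some alternatives could move few values. Quantile normalization gives all arrays the same distribution, which the deposited values nearly had. All 27 values stayed within that SD, with 0 calls lost or gained. Choice by the highest signal on any array took the same probe sets, and leaving out _s_at, _x_at and _a_at probe sets changed only Bcl11a. Spike-in scaling moved 8 of the 27 values by more than that SD, with 4 calls lost and 4 gained. With a 4-fold threshold the factors called were 5 for pDC minus CD8+ cDC and 3 for pDC minus CD11b+ cDC, in place of 8 and 7. For CD8+ minus CD11b+ cDC, 7 were called with spike-in scaling and 7 at 1.5-fold, in place of 4. The spike-ins (18 probe sets) moved the median of all genes to 0.65 for pDC minus CD8+ cDC, -0.30 for pDC minus CD11b+ cDC and -0.95 for CD8+ minus CD11b+ cDC. With housekeeping scaling the subset named first in each pair held 65.8%, 58.0% and 38.6% of all calls, against 51.8%, 51.2% and 49.0% on the deposited scale. The cause of these shifts was not tested. Of the 11 genes used for housekeeping scaling, 6 were not called in any pair. Gusb (22885.5 in pDC, 230997.1 in CD8+ cDC, 15272.3 in CD11b+ cDC) and Tfrc (130348.3, 11229.5 and 49620.1) differed most. Calls that changed with this scaling thus rest partly on reference genes that were not stable. For CD8+ minus CD11b+ cDC, spike-in scaling called 405 genes higher and 4770 lower, in place of 1054 and 1099, and 0 factors higher and 7 lower. For pDC minus CD8+ cDC it called 3381 higher and 976 lower, in place of 1724 and 1603, and 7 factors higher and 0 lower. At 1.5-fold 2741 genes were higher and 2371 lower in that pair, and at 4-fold 743 and 819. For pDC minus CD11b+ cDC these were 2634 and 2320, and 647 and 777, in place of 1613 and 1539. For CD8+ minus CD11b+ cDC they were 1885 and 2012, and 403 and 422. No paired analysis was possible because each subset has 1 array. Signals near the background level limit Ikzf3 and the dim probe sets of Zeb2 and Foxp1.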
